A study of Mus musculus with 4 samples.

Results

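The effector genes of mature Ly6C-high monocytes described here are 6 of the 27998 genes counted, namely Lyz2, Chil3, Wfdc17, Ifitm6, Plac8 and Cybb. They were picked by name, with earlier results of the same cells known, for how they moved with age and between cells with and without a UMI of the cell cycle genes Mki67 or Top2a. Values of the members in these comparisons are therefore given as a description without a test, and tests were kept for splits of the cells that were not named in the choice. A UMI (unique molecular identifier) count is a number of captured RNA molecules, and levels are given as counts per 1000000 UMIs (CPM) of a mouse or of a class of its cells. Because capture is from the 3′ end and differs between genes, levels are compared between samples and never between genes.

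The cells were classical monocytes sorted as Ly6G-CD11b+CD115+Ly6Chi cells from the bone marrow of wild-type C57BL/6 mice, 5 mice in each of 4 groups. The males were aged 14 weeks (young) or 27 months (old), and the females 15 weeks or 26.5 months. No group carried an engineered allele or received an agent. Each mouse had its own hashtag antibody, and the 10 mice of a sex were pooled into 1 library, so that sex cannot be told apart from experiment and each pool was read alone. No cell barcode was shared between the pools (0 shared barcodes).

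After filtering there were 1226 male and 7604 female cells, 49 to 206 cells per male mouse and 245 to 1837 per female mouse. The summed UMIs per mouse ranged from 330586 to 1108320 in males and from 2861770 to 21892113 in females. Ly6c2 had a UMI in 93.5% of male and 99.5% of female cells, Ccr2 in 93.3% and 98.7%, and Csf1r, which encodes CD115, in 54.1% and 91.5%. The male cells were shallower, at a median of 3805.5 to 8844 UMIs per cell and mouse against 8398 to 15274.5 in females. Cells of old mice were the deeper ones in both pools. The medians were 3805.5 to 4455.5 in young and 4489.5 to 8844 in old males, and 8398 to 9476.5 and 10106 to 15274.5 in young and old females. Old male 4 stood apart with 49 cells, of which 81.6% had a UMI of Mki67 or Top2a (42.6% with every cell thinned to 2000 UMIs). In old female 1, 80.6% of cells had a UMI of the MHC class II gene H2-Aa, and the figure was 37.9% and 42.9% in old males 2 and 5.

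The products of these genes serve the antimicrobial and tissue-directed work of monocytes. Lyz2 encodes lysozyme M, which cleaves bacterial cell wall peptidoglycan, and Cybb encodes gp91phox, the catalytic subunit of the phagocyte NADPH oxidase that makes superoxide. Chil3 encodes Ym1, a secreted chitinase-like protein without chitinase activity, Wfdc17 a small secreted protein with a whey acidic protein domain, Ifitm6 a member of the interferon-induced transmembrane family, and Plac8 a small cysteine-rich protein found in many haematopoietic cells. Monocytes arise in the marrow from dividing progenitors and lose proliferative capacity as they mature, and PU.1 and C/EBP family factors drive many myeloid genes.

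The 6 genes lie apart in the genome, each annotated as protein coding in GRCm38. Lyz2 (ENSMUSG00000069516) is on chr10:117277331-117282321, minus strand. Chil3 (ENSMUSG00000040809) is on chr3:106147554-106167564, minus strand. Wfdc17 (ENSMUSG00000069792) is on chr11:83703991-83706268, plus strand. Ifitm6 (ENSMUSG00000059108) is on chr7:141015699-141017924, minus strand. Plac8 (ENSMUSG00000029322) is on chr5:100553725-100572245, minus strand, and Cybb (ENSMUSG00000015340) is on chrX:9435252-9487771, minus strand.

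Promoters are shown because 5 of the 6 genes were lower over all mice in the split by Ms4a3 described further on, and Plac8 was not. The 4 stretches are the bases just upstream of the annotated gene, from RefSeq on GRCm38.p6 and read 5′ to 3′ on the strand of the gene: Lyz2 chr10:117282322-117282522, Chil3 chr3:106167565-106167814, Wfdc17 chr11:83703806-83703990 and Plac8 chr5:100572246-100572455. Capitals mark a match to the PU.1-type motif AGGAAGT or its reverse complement. Lyz2 and Chil3 are shown because they hold it, Wfdc17 because it had the widest split between cell classes without it, and Plac8 because it behaved differently.
Lyz2: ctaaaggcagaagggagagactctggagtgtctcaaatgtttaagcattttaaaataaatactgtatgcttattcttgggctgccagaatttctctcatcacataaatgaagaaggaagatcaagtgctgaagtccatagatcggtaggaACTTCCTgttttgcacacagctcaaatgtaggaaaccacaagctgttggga
Chil3: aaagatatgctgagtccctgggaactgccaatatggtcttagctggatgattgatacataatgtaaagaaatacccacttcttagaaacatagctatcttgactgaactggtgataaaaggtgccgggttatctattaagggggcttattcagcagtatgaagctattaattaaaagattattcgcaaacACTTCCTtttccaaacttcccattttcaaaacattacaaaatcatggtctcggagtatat
Wfdc17: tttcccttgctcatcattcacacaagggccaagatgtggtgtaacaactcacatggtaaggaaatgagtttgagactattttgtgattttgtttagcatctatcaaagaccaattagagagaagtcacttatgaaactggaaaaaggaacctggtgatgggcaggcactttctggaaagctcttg
Plac8: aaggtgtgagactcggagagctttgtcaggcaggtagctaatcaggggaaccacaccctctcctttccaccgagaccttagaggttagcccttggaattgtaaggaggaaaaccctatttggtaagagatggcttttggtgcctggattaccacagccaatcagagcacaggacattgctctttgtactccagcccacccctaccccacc

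Within the 250 bases upstream of the RefSeq start, AGGAAGT was found on either strand in Lyz2, Chil3 and Ifitm6, and not in Wfdc17, Plac8 or Cybb. Its first base was 100, 60 and 12 bases before that start. For Lyz2, Wfdc17 and Plac8 the RefSeq start lies inside the gene as positioned above, and the printed stretches end before it. The 100 bases of Lyz2 are therefore not counted from the end of its printed stretch. AGGAAGT occurred in 7.69% of 32851 promoters of 250 bases (2525). An IRF-type motif, GAAA followed after any 2 bases by GAAA, matched 3 times in Cybb and in no other member, against 2.98% of all promoters (978), and the C/EBP-type motif TTGCNNAA matched in no member at the main start, against 9.56% (3142). The windows read for Ifitm6 (chr7:141016893-141017142) and Cybb (chrX:9469325-9469574) lie wholly inside the genes as positioned above. The Lyz1 promoter, that of the gut-type lysozyme gene next to Lyz2, held AGGAAGT at the same distance of 100 bases and was identical to that of Lyz2 at 152 of 250 bases (60.8%). Lyz1 had 56 UMIs in males and 1206 in females, and Lyz2 had 181561 and 2305635. Any link between these counts and the motif was not tested. Reads of near-identical copies can be split or dropped in counting, so the Lyz1, Lyz2 and Chil3, Chil4 values are uncertain to that extent (Chil4 had 0 and 1 UMI).

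Age was described first, mouse by mouse, for the genes whose old and young mice separated. How many of all genes separated by age was not counted, in all cells or in classes of cells, so nothing about the members is read from it. Lyz2 stood at 31363, 30855, 29013, 31420 and 30525 CPM in young males and 28292, 23874, 18065, 11830 and 24747 CPM in old males. All 5 old males lay below every young male, and the lowest was old male 4. In females Lyz2 was at 23634, 25261, 25572, 25266 and 24569 CPM in young mice and 21210, 18098, 24117, 23578 and 18115 CPM in old mice, 4 of the 5 old ones below every young one. The log2 fold change, old against young, was −0.52 ± 0.15 (SE, n = 5 per group) in males and −0.24 ± 0.07 in females. Leaving out each male in turn moved the male value between −0.64 and −0.36, the latter without old male 4.

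Chil3 went in opposite directions in the pools. Young males had 1759, 2070, 1009, 1487 and 797 CPM and old males 676, 723, 2640, 301 and 284 CPM, so 4 old males lay below every young male and old male 3 above every one. The male log2 fold change of −0.62 ± 0.45 became −1.50 without old male 3. Young females had 685, 928, 854, 776 and 719 CPM and old females 2626, 1074, 1249, 1531 and 1080 CPM, without overlap, and the log2 fold change was 0.94 ± 0.20 (0.64 to 1.04 with each mouse left out). The rise was seen both in how many female cells held a Chil3 UMI and in how many each held. With every cell thinned to 2000 UMIs, 45.1 to 52.6% of cells of young females and 53.0 to 77.6% of cells of old females had a Chil3 UMI, and positive cells held a mean of 3.68 to 4.30 and 4.61 to 7.67 UMIs. Old male 3 held 11.4 UMIs per positive cell.

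Plac8 was higher with age in both pools. Young females had 2224, 2110, 2208, 2287 and 2309 CPM and old females 3075, 2951, 2675, 2639 and 2879 CPM, again without overlap, a log2 fold change of 0.36 ± 0.04. Young males had 3698, 3207, 2615, 3125 and 2555 CPM and old males 2466, 5742, 5034, 2982 and 4743 CPM, so 3 old males exceeded every young male and old male 1 was the lowest of all. The male log2 fold change was 0.46 ± 0.18 and lay between 0.32 and 0.60 with each mouse left out.

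**Figure D1:**
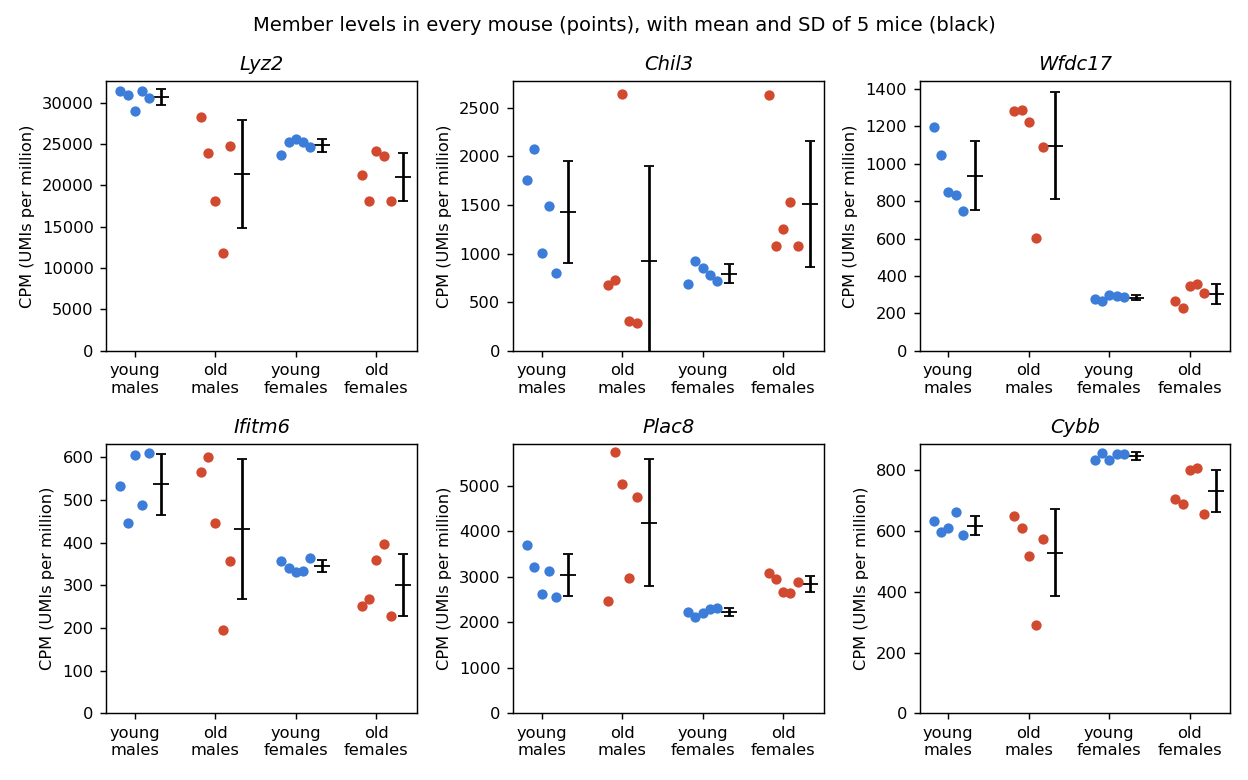
Level of each of the 6 genes in every mouse, in CPM of the UMIs of that mouse (vertical axis), by pool and age group (horizontal axis, 5 mice each). Points are mice (young in blue, old in red) and black bars are the mean with the SD. Lyz2 of all 5 old males and Cybb of all 5 old females lie below the young mice of their pool, while Chil3 and Plac8 of all 5 old females lie above. How many of all genes separated by age was not counted.

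Cybb, the oxidase subunit, was at 832, 858, 835, 854 and 854 CPM in young females and 706, 688, 802, 808 and 656 CPM in old females. No old female reached the lowest young one, and the log2 fold change was −0.21 ± 0.05. In males it was at 586 to 663 CPM in young mice and at 290 CPM in old male 4, against 520 to 650 CPM in the other old males. The male log2 fold change of −0.22 ± 0.15 was −0.06 without old male 4 (−0.31 with old male 1 left out). Wfdc17 and Ifitm6 overlapped between the ages in both pools. The mean of Wfdc17 was 1097 ± 287 CPM in the 5 old males against 936 ± 184 CPM in the 5 young ones (SD), and 301 ± 53.2 against 283 ± 13.8 CPM in females. That of Ifitm6 was 433 ± 164 against 536 ± 72.0 CPM in males, and 301 ± 73.2 against 345 ± 15.1 CPM in females. Without old male 4 the male log2 fold change of Ifitm6 went from −0.29 to −0.11 and that of Wfdc17 from 0.23 to 0.39. The SD over the 5 old mice exceeded that over the 5 young mice for all 6 members in both pools. How many of all genes did the same was not counted, so nothing about the members is read from this.

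In females 4.73% of the 10386 genes fitted were called for age by edgeR (adjusted p under 0.05, either direction), and Chil3, Plac8 and Cybb were among them. In males the same test called 0% of 5655 genes, with 624 genes under an unadjusted p of 0.05 and 22 genes called by DESeq2. Since the members were chosen with these contrasts known, nothing is read from their share. The median log2 fold change was −0.05 over the members and 0.00 over all genes in females, and −0.26 and 0.01 in males.

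Markers of monocyte subsets and of other cell types were also read by age group. The summed level of 5 genes of dendritic cell-producing monocytes (Cd209a, Cd74 and the MHC class II genes H2-Aa, H2-Ab1 and H2-Eb1) was 563 to 1018 CPM in young and 1282 to 7320 CPM in old females, and 1127 to 1863 and 294 to 9825 CPM in young and old males. That of 7 neutrophil genes was 90.5 to 4000 CPM in young and 92.0 to 4407 CPM in old males, and 207 to 1227 and 65.7 to 299 CPM in young and old females, and their part in the age values was not tested. Cells with a UMI of Ms4a3, a gene of neutrophil-like monocytes, made up 7.86 to 14.2% of cells in young and 15.5 to 26.5% in old males, and 17.7 to 21.5% and 20.8 to 36.3% in young and old females. These shares were taken without thinning. Every old mouse had a higher median of UMIs per cell than every young mouse of its pool, so age and depth cannot be told apart in them. The summed level of 5 genes of neutrophil-like monocytes (Mpo, Elane, Prtn3, Ctsg and Ms4a3) was 2487 to 2995 CPM in young and 2724 to 4401 CPM in old males, and 5686 to 7576 and 5948 to 9301 CPM in young and old females, and its part was not tested either. In cells without a UMI of 14 marker genes of other cell types, the age log2 fold changes in females were −0.17 for Lyz2, 1.06 for Chil3, 0.46 for Plac8 and −0.13 for Cybb, and in males −0.47 for Lyz2, −0.59 for Chil3 and 0.51 for Plac8. T or NK, basophil, B cell, conventional DC, plasmacytoid DC and erythroid marker lists each stayed at or below 568 CPM in every mouse.

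Dividing cells also moved with age. With each cell thinned to 2000 UMIs, 42.0 ± 3.98% (SD, n = 5) of cells of old and 35.2 ± 1.78% of cells of young females had a UMI of Mki67 or Top2a, a difference of 6.89 percentage points (two-sided exact permutation test, p = 0.0159), which with HTODemux was 4.72 points (p = 0.0556). In males the shares were 26.2 ± 9.50% and 18.0 ± 2.83%, a difference of 8.23 points (exact permutation test, p = 0.0397), which without old male 4 was 4.15 points (p = 0.0794). Leaving out any 1 of 9 of the 10 males raised the exact p to between 0.0635 and 0.0794, and it stayed under 0.05 only without old male 2 (p = 0.0159). Among cells without either UMI, taken without thinning, the female age differences of Lyz2 and Cybb shrank to log2 fold changes of −0.13 and −0.02. Those of Chil3, Plac8, Wfdc17 and Ifitm6 were 0.89, 0.62, 0.29 and 0.01. In the same class of male cells the age differences were −0.48 for Lyz2, −0.56 for Chil3, 0.62 for Plac8, 0.30 for Wfdc17, −0.15 for Ifitm6 and −0.12 for Cybb. Cells of old mice were deeper, so age and depth cannot be told apart in which cells lacked a UMI.

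All 6 genes were lower in cells with a UMI of Mki67 or Top2a than in the other cells of the same mouse, the split that the choice of the members had used. Wfdc17 was the widest. In young females it was at 155, 155, 129, 160 and 148 CPM in cells with and 594, 578, 741, 644 and 624 CPM in cells without a UMI, and in old females at 154, 146, 192, 198 and 168 CPM and 708, 597, 768, 802 and 929 CPM. The classes did not overlap in either pool, and the log2 fold change was −2.10 ± 0.04 (SE, n = 10) in females and −2.15 ± 0.13 in males. How many of all genes did not overlap in this way was not counted.

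Among the others, Ifitm6, Cybb and Lyz2 came next in both pools, and Chil3 and Plac8 differed least. Ifitm6 differed by −1.83 ± 0.09 on the log2 scale in males and −1.83 ± 0.04 in females, Cybb by −1.34 ± 0.10 and −1.43 ± 0.03, Lyz2 by −1.15 ± 0.07 and −1.26 ± 0.02, Chil3 by −0.94 ± 0.13 and −0.53 ± 0.05, and Plac8 by −0.52 ± 0.07 and −0.55 ± 0.04. Every member was lower in 10 of 10 females, and Lyz2, Wfdc17 and Ifitm6 in 10 of 10 males. Chil3, Plac8 and Cybb were lower in 9 of 10 males, the exception being old male 4, in which 9 cells had neither UMI. Of all genes, 25.3% in males and 38.5% in females were called lower in this split, and all 6 members were among them, from which nothing is read because the split was part of their choice.

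**Figure D2:**
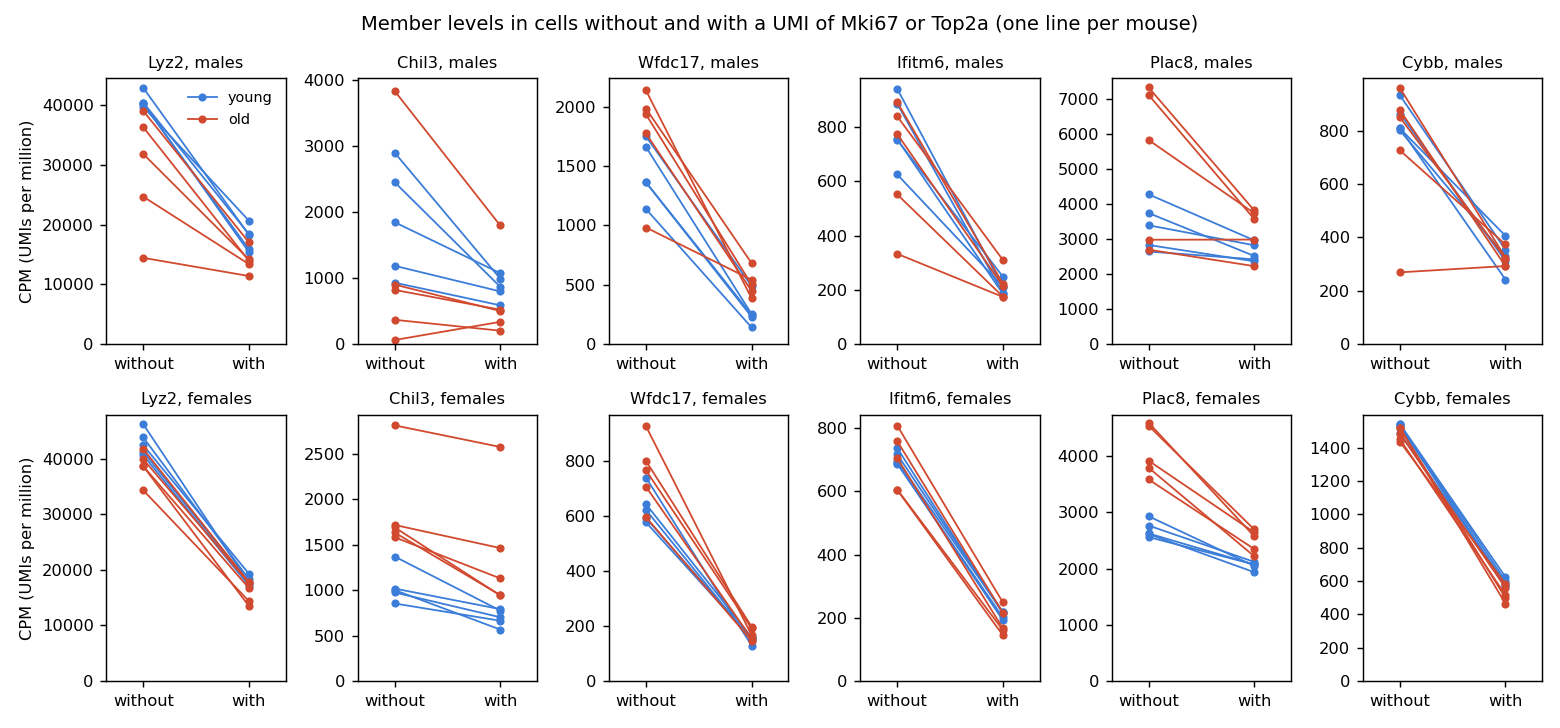
Level of each gene in cells with and without a UMI of Mki67 or Top2a, in CPM of the UMIs of that class in a mouse (vertical axis from 0), with a line joining the classes of each mouse, young in blue and old in red. All lines fall from the class without to the class with a UMI in females, and 9 or 10 of 10 fall in males.

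Cells with a UMI of Mki67 or Top2a were also the deeper ones, at a median of 7879 against 3900.5 UMIs in males and 15887 against 7574 in females. With all cells thinned to 2000 UMIs the differences in females were −1.72 for Wfdc17, −1.53 for Ifitm6, −1.09 for Cybb, −0.92 for Lyz2, −0.68 for Plac8 and −0.26 for Chil3. By the number of Mki67 and Top2a UMIs left in the thinned female cells, each member had a lower mean at 1 UMI than at 0. Wfdc17 was at a mean of 587, 242, 129 and 147 CPM in cells with 0, 1, 2 and 3 or more such UMIs, and Lyz2 at 35712, 21534, 17063 and 18405 CPM. Plac8 declined from 3219 to 2339, 2058 and 1823 CPM, and Chil3 stayed between 1155 and 1419 CPM.

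**Figure D3:**
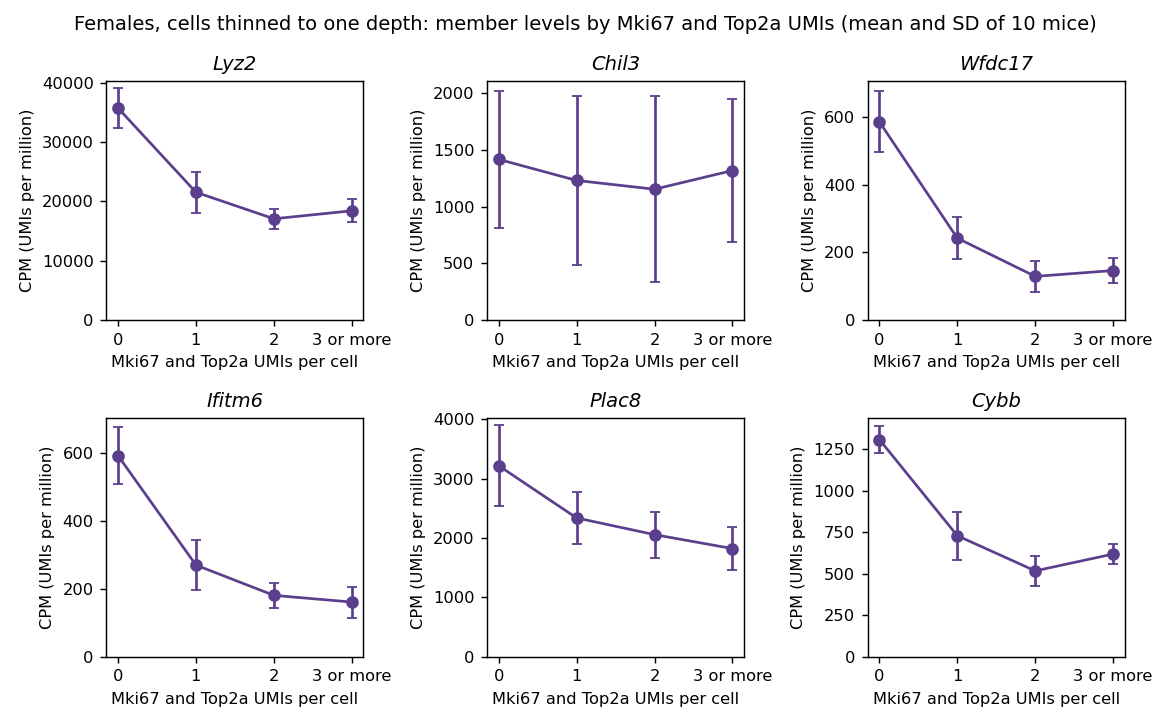
Mean level of each gene over mice (CPM, points, with the SD of 10 mice as bars) against the number of Mki67 and Top2a UMIs in a female cell thinned to 2000 UMIs. Wfdc17 falls from 587 to 242 CPM at the first UMI, and Chil3 stays between 1155 and 1419 CPM.

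Whether the age difference was the same in both classes had no part in the choice of the members and was tested. Plac8 was the 1 member called, in females. In female cells without Mki67 or Top2a it was at 2625, 2615, 2561, 2931 and 2766 CPM in young mice and 4543, 4598, 3587, 3796 and 3920 CPM in old mice. In cells with a UMI of either it was at 2072, 1936, 2073, 2048 and 2119 CPM in young mice and 2698, 2575, 2348, 2220 and 2646 CPM in old mice. Old and young did not overlap in either class, and the age difference was wider in the cells without.

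The age log2 fold change of Plac8 in cells with a UMI minus that in cells without was −0.34 ± 0.05 (edgeR adjusted p = 2.9e-04 over 10068 genes, of which 0.238% were called). It lay between −0.37 and −0.31 with each mouse left out (largest adjusted p = 0.003). Thinned to 2000 UMIs the interaction was −0.09 ± 0.06 and was not called (adjusted p = 0.99, edgeR, with 0 genes called, 311 under an unadjusted p of 0.05 and no other tool run on thinned counts). For the other 5 members in females the interaction lay between −0.17 (Ifitm6, 95% interval −0.29 to −0.05) and 0.06 (Chil3, −0.13 to 0.25), with adjusted p of at least 0.45 (edgeR). In males 0% of 4544 genes were called by edgeR (201 under an unadjusted p of 0.05) and DESeq2 called 0 as well. The widest male member was Wfdc17, at 0.65 (interval 0.21 to 1.08, adjusted p = 0.999).

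Ms4a3 marks monocytes that descend from granulocyte-monocyte progenitors and resemble neutrophil precursors, and a split by it was not named in the choice of the members, although it overlaps with the split by Mki67 or Top2a. Over all mice of each pool 5 of the 6 members (Lyz2, Chil3, Wfdc17, Ifitm6 and Cybb) were lower in cells with a Ms4a3 UMI, and Plac8 was not. Over the 10 females Lyz2 averaged 10638 ± 1286 CPM (SD) in cells with and 30008 ± 2200 in cells without Ms4a3, Cybb 362 ± 43.6 and 1039 ± 43.2, and Ifitm6 119 ± 20.4 and 440 ± 48.2. Wfdc17 averaged 101 ± 14.0 and 408 ± 68.3 CPM, its highest value with Ms4a3 being 123 CPM and its lowest without being 327 CPM. All 5 were lower in 10 of 10 females, and the classes did not overlap for Lyz2, Wfdc17, Ifitm6 or Cybb. For how many of all genes the classes did not overlap was not counted.

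The log2 fold changes in females were −1.99 ± 0.05 for Wfdc17 (edgeR adjusted p = 2.1e-21), −1.85 ± 0.05 for Ifitm6 (2.0e-22), −1.48 ± 0.04 for Cybb (5.0e-21), −1.45 ± 0.03 for Lyz2 (5.9e-23) and −0.59 ± 0.07 for Chil3 (3.0e-08). In males they were −2.03 ± 0.14 (6.8e-12), −1.80 ± 0.17 (1.7e-09), −1.40 ± 0.10 (7.2e-12), −1.58 ± 0.08 (4.1e-15) and −0.88 ± 0.22 (0.0015) in the same order, lower in 10 of 10 males each except Chil3, which was lower in 8 of 10. Called lower were 39.5% of 9598 genes in females and 24% of 3148 genes in males. The male call of Chil3 was not made by DESeq2 (−0.86) or after thinning (−0.47). The median log2 fold change was −1.47 over the 6 members against −0.01 over all genes in females, and −1.49 against 0.01 in males. The members were chosen by how they moved with Mki67 or Top2a, and the split by Ms4a3 overlaps with that one. Neither these medians nor the calls are therefore independent of the choice.

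Plac8 parted by age in this split. Young females had 2565, 2419, 2631, 2497 and 2678 CPM in cells with and 2045, 1982, 2009, 2193 and 2141 CPM in cells without Ms4a3, higher with it in 5 of 5. Old females had 2818, 2776, 2577, 2467 and 2880 CPM with and 3304, 3074, 2723, 2729 and 2879 CPM without, lower with it in 4 of 5. Young males averaged 3943 ± 409 CPM (SD, n = 5) with and 2837 ± 546 without Ms4a3, higher in 5 of 5, and old males 3968 ± 587 and 4285 ± 1789, higher in 2 of 5. Whether the split differed with age was not tested. The fit over all mice gave 0.14 ± 0.05 for Plac8 in females (edgeR adjusted p = 0.013) and 0.22 ± 0.10 in males (adjusted p = 0.056), averages over ages that went in different directions. The female call was not made by DESeq2 (0.15), with HTODemux (0.11) or without young female 1 (0.10) or 3 (0.09). In males Plac8 was called higher with HTODemux (0.26) and without old male 2 (0.30), 3 (0.31) or 5 (0.26).

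Cells with Ms4a3 more often had a UMI of Mki67 or Top2a, by shares taken without thinning, and were deeper. Depth and division cannot be told apart in these shares. In females 87.8% of the 1709 cells with Ms4a3 had a UMI of Mki67 or Top2a, against 50.1% of the other 5895, and the medians were 20860 and 8976 UMIs. In males 68.2% of 176 and 28% of 1050 cells did, at medians of 9111 and 4237.5 UMIs. Among female cells without Mki67 or Top2a (209 with and 2940 without Ms4a3) 36 of 5819 genes were called, 34 higher and 2 lower. No member was among these genes, and the log2 fold changes of the members lay between −0.24 (Cybb) and −0.01 (Plac8). Among male cells without Mki67 or Top2a (56 and 756 cells), where 242 of 1990 genes were called lower, 5 of 6 members were still called lower. They were at −1.19 for Lyz2 (edgeR adjusted p = 4.0e-05), −1.20 for Chil3 (0.02), −1.44 for Wfdc17 (0.0012), −1.39 for Ifitm6 (2.9e-04) and −1.40 for Cybb (6.1e-05). Plac8 was at 0.14 there (edgeR adjusted p = 0.46). These counts of cells are over all mice, while the fits used only mice with at least 5 cells in both classes.

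H2-Aa, an MHC class II gene of dendritic cell-producing monocytes, set Chil3 and Plac8 apart in opposite directions. Chil3 was lower in cells with H2-Aa, with a log2 fold change of −0.45 ± 0.08 in females (edgeR adjusted p = 7.9e-04, lower in 8 of 10) and −0.81 ± 0.21 in males (adjusted p = 0.010, lower in 9 of 10). Plac8 was higher by 0.18 ± 0.03 in females (adjusted p = 3.7e-04, higher in 10 of 10) and 0.41 ± 0.10 in males (adjusted p = 0.0042, higher in 6 of 10). Both calls held in each pool in cells without Mki67 or Top2a, with −0.57 and 0.21 in females and −1.05 and 0.47 in males. In such cells 480 of 6874 genes were called in females and 209 of 1619 in males, in either direction. The male call of Plac8 was lost without the filter on low counts (0.09). The male fit left out old male 4, which had fewer than 5 cells with H2-Aa, although the counts of mice include it. Over all male mice, 17.4% of cells with and 36.4% of cells without H2-Aa had a UMI of Mki67 or Top2a. In females the shares were 57.4% and 59.0%. The male split therefore overlaps with the one used in the choice of the members.

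The other 4 members were called higher with H2-Aa in males and not in females, and the pools were not tested against each other. In males Wfdc17 differed by 0.89 ± 0.12 (edgeR adjusted p = 1.1e-05, higher in 10 of 10), Cybb by 0.54 ± 0.12 (0.0034), Ifitm6 by 0.42 ± 0.14 (0.039) and Lyz2 by 0.31 ± 0.10 (0.036). In female cells Wfdc17 was at 0.20 (95% interval 0.04 to 0.37, adjusted p = 0.22), Lyz2 at −0.01 (−0.13 to 0.10), Ifitm6 at 0.02 (−0.12 to 0.15) and Cybb at 0.01 (−0.12 to 0.14). With all female cells thinned to 2000 UMIs these 4 were called higher, Wfdc17 at 0.66, Cybb at 0.35, Ifitm6 at 0.33 and Lyz2 at 0.29 (edgeR adjusted p from 2.0e-10 to 1.1e-04), whereas in thinned male cells Ifitm6 (0.10) and Lyz2 (0.18) lost their calls. Of all genes, 615 of 5074 were called higher in thinned female cells and 111 of 1018 in thinned male cells. Without thinning, 18.4% of 2531 genes were called in males and 4.21% of 9562 in females, in either direction. The male calls of Lyz2, Ifitm6 and Cybb were lost in cells without Mki67 or Top2a (0.12, −0.02 and 0.31) and without the filter on low counts (−0.01, 0.10 and 0.23). DESeq2 did not call Lyz2 or Ifitm6 (adjusted p = 0.145 and 0.109). The call of Lyz2 was also lost without young male 3 or 5 or old male 1, 2 or 5 (0.21 to 0.29), and that of Ifitm6 without young male 3 or old male 1, 2, 3 or 5 (0.33 to 0.42).

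The female library also held counts of antibodies against surface proteins, a readout apart from RNA. Each antibody was scaled to the 6 antibodies of a cell, and the cells of each mouse were ranked by it and parted into 3 equal ranges, of which the highest and the lowest were compared (2531 cells in each, called high and low). All 6 members were higher in cells with high surface CD11b, the integrin chain encoded by Itgam, in 10 of 10 mice each. Wfdc17 averaged 615 ± 87.3 CPM (SD) in CD11b-high and 109 ± 18.1 in CD11b-low cells, Ifitm6 576 ± 74.9 and 157 ± 37.0, Cybb 1348 ± 113 and 428 ± 56.4, and Lyz2 36629 ± 4633 and 13476 ± 2013. These 4 did not overlap between the ranges, but how many of all genes did the same was not counted. Chil3 averaged 1515 ± 675 and 784 ± 473 CPM and Plac8 3178 ± 613 and 2332 ± 258 CPM, both with overlap.

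The log2 fold changes with CD11b were 2.51 ± 0.07 for Wfdc17 (edgeR adjusted p = 6.3e-20), 1.91 ± 0.06 for Ifitm6 (3.1e-19), 1.68 ± 0.04 for Cybb (7.1e-20), 1.47 ± 0.04 for Lyz2 (2.7e-19), 1.04 ± 0.07 for Chil3 (5.9e-13) and 0.45 ± 0.04 for Plac8 (1.5e-09). Of 9144 genes, 38% were called higher. Of CD11b-low cells 84.5% had a UMI of Mki67 or Top2a and of CD11b-high cells 34.8%, at medians of 17025 and 7716 UMIs. When the ranges were made again within cells without Mki67 or Top2a, 827 of 5862 genes were called higher. Among them were 5 members (Wfdc17 0.70, Plac8 0.60, Cybb 0.41, Lyz2 0.30, Ifitm6 0.24), and Chil3 was at 0.05 (edgeR adjusted p = 0.59). The neutrophil granule genes Camp and Ngp were higher in CD11b-high cells by 6.01 and 6.04. In cells without a UMI of the 14 marker genes of other types, the members stood at 0.51 (Chil3) to 2.04 (Wfdc17). In all cells these 2 genes were at 1.04 and 2.51. The part of neutrophil RNA in the members' values was not tested.

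**Figure D4:**
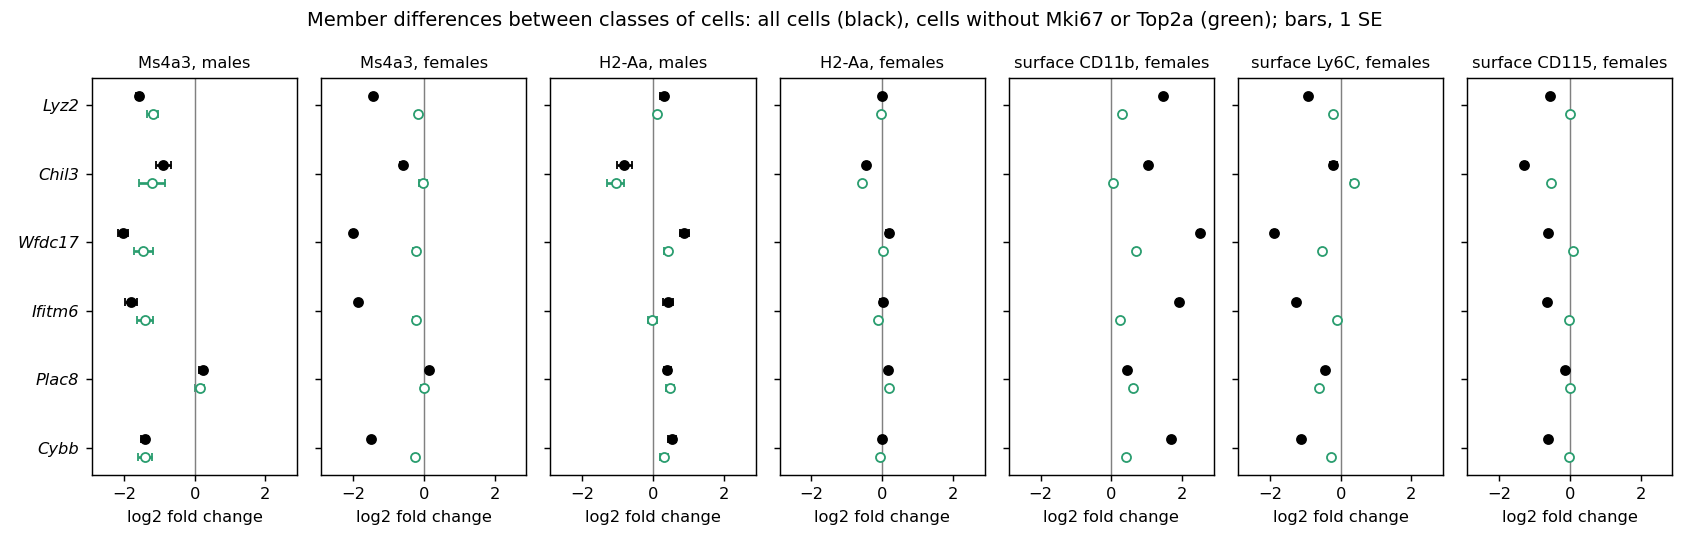
Log2 fold change of each gene (points, with 1 SE as bars) between classes of cells from the same mice: with against without Ms4a3 and H2-Aa in each pool, and the highest against the lowest of 3 ranges of each of 3 surface antibodies in females. Black points are all cells and green ones cells without Mki67 or Top2a. In all cells Plac8 sits at 0.14 and 0.22 for Ms4a3, where the other 5 genes lie at −0.59 or below.

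Surface Ly6C gave the opposite picture on the scaled counts, with 5 of 6 members lower in Ly6C-high cells (31.7% of 9126 genes were called lower). The log2 fold changes were −1.87 ± 0.06 for Wfdc17, −1.25 ± 0.05 for Ifitm6, −1.13 ± 0.05 for Cybb, −0.92 ± 0.04 for Lyz2 and −0.43 ± 0.04 for Plac8 (edgeR adjusted p from 2.7e-16 to 1.8e-09), while Chil3 was at −0.20 ± 0.11 (adjusted p = 0.12) and was called lower without old female 1 (−0.28) or 4 (−0.26). Ly6C made up most of the antibody counts of a cell, so its share falls where the others rise. Ranked by the raw Ly6C count instead, Chil3 was higher by 0.76 (edgeR adjusted p = 2.3e-10) and the other 5 were at −0.53 to −0.11. Of the cells high and low for scaled Ly6C, 80.2% and 38.7% had a UMI of Mki67 or Top2a, and in cells without them Chil3 was at 0.37 and the other 5 at −0.60 to −0.09. With scaled Ly6C in all cells the neutrophil granule genes Camp and Ngp were at −5.70 and −5.59. Their part in the members' values was not tested.

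All 6 members were lower in cells with high surface CD115, the receptor for CSF1, with Chil3 at −1.29 ± 0.06 (edgeR adjusted p = 4.1e-14), the next being Ifitm6 at −0.64 ± 0.05 (2.0e-11) and the smallest Plac8 at −0.13 ± 0.03 (6.7e-04). Called lower were 24.5% of 9076 genes. The antibody gave few counts, a median of 10 in CD115-high and 1 in CD115-low cells. Of these cells 65.9% and 54.4% had a UMI of Mki67 or Top2a, at medians of 13555 and 9373 UMIs. In cells without Mki67 or Top2a, 56 of 5821 genes were called, 35 of them lower. Of the members only Chil3 remained called there, at −0.52 (edgeR adjusted p = 2.0e-10), and the other 5 lay between −0.04 and 0.08.

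Related genes, from lists that were also drawn up with earlier results known, were read beside the members. Over all genes 3795 of 9598 were lower and 3619 higher with Ms4a3 in females (36 of 5819 called in cells without Mki67 or Top2a), and 3477 of 9144 were higher and 3291 lower with CD11b. Of the 6 other subunits and partners of the NADPH oxidase, 5 were lower with Ms4a3 in females, Cyba among them (−0.53), and 5 higher with CD11b, again with Cyba (0.53). For age 0 of 6 were called in either pool, where 4.73% of all genes were called in females and 0% in males. Of 20 lysosomal genes, 18 were lower with Ms4a3 in females, led by Lgmn (−1.66) and Lyz1 (−1.58), and 2 were higher, Cd63 (3.83) and Gusb (0.15). With CD11b 18 were higher, led by Lyz1 (3.14) and Lgmn (1.95), and with age 2, the proteases Ctsc (0.44) and Ctsz (0.17), were higher in females.

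Among 16 paralogs of the members 7 were abundant enough to test for age in females, and only Ifitm1 was called (2.60 ± 0.52, edgeR adjusted p = 0.012), against 4.73% of all genes. With Ms4a3 in females 3 of the 7 were higher and 4 lower. In males Slpi, a protease inhibitor with whey acidic protein domains, was higher with Ms4a3 (0.98) and Ifitm3 (−1.61) and Ifitm2 (−0.51) were lower. Of 19 other genes of mature Ly6C-high monocytes, 17 were lower with Ms4a3 in females (Slfn1 −2.28, Vcan −2.26) and 18 higher with CD11b (Slfn1 2.38, Ccl6 2.31), Ly6c2 being lower (−0.42). Fn1, Ccl6, Tmcc1, Slfn1 and Itgam of this list were cluster markers the study picked on these cells, so their direction is not independent evidence. With age in females 4 were higher, led by Vcan (1.21) and Fcgr1 (0.82), and Tmcc1 was lower (−0.26), again against 4.73% of all genes.

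The granule and progenitor genes, read against the same shares over all genes, went the other way. All 9 tested were higher with Ms4a3 in females (Camp 5.30, Ngp 4.99), and with CD11b 7 of 10 were lower (Mpo −3.32, Ctsg −3.14) and Ngp and Camp higher. Of 16 cycle genes, 15 were higher with Ms4a3 and 16 lower with CD11b, and Top2a was the 1 called for age in females (0.21), where 4.73% of all genes were called. Of the myeloid transcription factors 9 were tested with Ms4a3 in females, 3 higher and 6 lower, and Klf4 (−0.51) and Irf8 (−0.18) were lower with age in females.

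Over the 10 mice of a pool, averaged over both pools, the genes whose log2 CPM followed each member most closely among 5649 genes were Tmsb4x (r = 0.98), Tpt1 (0.949) and Tyrobp (0.948) for Lyz2, and Fcer1g (0.949), 1600010M07Rik (0.948) and Lyz2 (0.944) for Cybb. Ifitm6 was followed by Apoe (0.92), Wipf1 (0.914) and 1600010M07Rik (0.911), and Wfdc17 by Ifitm2 (0.826), Lrp1 (0.823) and Pirb (0.812). Plac8 had its own neighbours in Ly6e (0.942), Pnp (0.939) and Ctsc (0.936), and Chil3 the loosest, in Vcan (0.744), S100a11 (0.740) and Gyg (0.734). The mice share libraries and group differences, so these values only describe. From cell to cell within a mouse, in females thinned to 2000 UMIs, the mean Spearman correlation was 0.57 between Lyz2 and Cybb, 0.50 between Lyz2 and Wfdc17 and 0.04 between Chil3 and Plac8.

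Free RNA was judged from 11 male cells with at least 2 UMIs of the basophil gene Fcer1a, at a median of 1599 UMIs. Chil3, Wfdc17, Ifitm6 and Cybb had a UMI in 0 of 11 of these cells (exact 95% binomial upper bound 28.5%, counting error only), and Lyz2 was at 497 CPM, against at least 11830 CPM in every mouse. Plac8 was at 2653 CPM there, within the range of the male mice. The 70 female cells with at least 5 UMIs of Cd3 genes had Lyz2 at 21261 CPM, within the range of the female mice, so no level without the gene was had in that pool.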

How the data were processed

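Single-cell 3′ RNA libraries had been made from sorted bone marrow monocytes of 5 young and 5 old mice per sex, 1 library per sex. The authors aligned reads with STAR (2.5.1) to mm10 and counted UMIs with Cell Ranger (4.0.0 in the submitters' processing notes, 7.0.0 in the male and 3.1.0 in the female file header), and the deposited values were raw UMI counts per feature and barcode without normalization.

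Cells were given to the mouse of their leading hashtag where it had at least 10 counts and at least 3 times the next, which also dropped hashtag doublets (2401 of 10433 female barcodes had no clear hashtag). No other doublet caller was run. Barcodes had to show more than 200 genes and less than 5% of UMIs from mitochondrial genes. Counts were summed per mouse, or per mouse and class of cell with at least 5 cells in both classes. These sums were fitted in R 4.3.3 with edgeR 4.0.16 by quasi-likelihood (limma 3.58.1 loaded), after filterByExpr and TMM scaling. Two-sided p values were adjusted over all genes tested (Benjamini-Hochberg, threshold 0.05), with the mouse as a block for classes of its own cells. The fit was also run on simulated counts with the same dispersion for every gene. That dispersion was not matched to the spread between these mice, so nothing about the fit at that spread is read from it. All 6 members passed the filter on low counts in every comparison. Shares of cells were compared by exact permutation over all 252 assignments of mice (smallest p 0.00794). Alternatives were no filter, DESeq2 1.42.0, HTODemux of Seurat 5.3.0, cells without Mki67 or Top2a, thinning to 2000 UMIs (58 male and 16 female cells were shallower and left out) and each mouse left out. Leaving out cells with markers of other types, and remaking the surface ranges within cells without Mki67 or Top2a, were chosen after seeing the data.

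The members and all gene lists were chosen with earlier results of these data known. Named genes were the members, the 2 largest called rises and falls per list, and the 3 genes with the highest mean r with each member. A gene that this rule would name is not reported here. Splits by Ms4a3, H2-Aa and surface antibodies were taken because the choice of members did not rest on them, but they use the same cells. Those by Ms4a3, H2-Aa (in males), CD11b, Ly6C and CD115 also overlap with the split by Mki67 or Top2a. They are therefore not independent of the choice. P values rest on the mice of 1 pool. For age and for shares of cells they measure the spread between mice. For classes of cells and the interaction they measure how the difference within a mouse varied from mouse to mouse. Gene positions are those of GENCODE on GRCm38, not necessarily the release behind the counts, and promoters those of RefSeq.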

Additional observations from a re-analysis of the deposited data

Results flagged for a closer look

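Among 28 groups of 5 mice examined for a mouse that stands apart from its group, 2 had one, and chance alone flags about 1 group in 20. In old males, mouse 3 had the highest Chil3 level, at 2640 CPM. In old males, mouse 4 had the highest share of cells with a UMI of Mki67 or Top2a, at 42.6% after thinning to 2000 UMIs. The age difference of Plac8 in females differed between cells with and without Mki67 or Top2a by −0.34 on the log2 scale (edgeR adjusted p = 2.9e-04), every old mouse being above every young mouse in both classes. With cells thinned to 2000 UMIs the value was −0.09 ± 0.06 and was not called (adjusted p = 0.99, edgeR). The causes of these values were not tested.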

How the results depend on the processing

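No paired analysis was possible because mouse numbers mark separate animals in each group. Splits within a mouse already carried the mouse as a block. Counts of genes called that moved by over 1.5 times were as follows, and the causes were not tested. For age in males, 0 became 98 without the filter and 22 with DESeq2, and 0 to 38 with each mouse left out. For age in females, 491 became 207 thinned (232 to 781 with each mouse left out). For Mki67 or Top2a, 1833 in males became 1197 with HTODemux and 335 thinned (1634 to 1899), and 7387 in females became 3156 thinned (7037 to 7414). For the interaction, 0 in males became 11 without the filter (0 to 5), and 24 in females became 72 without the filter, 13 with DESeq2 and 0 thinned (10 to 29). For Ms4a3, 1540 in males became 485 in cells without Mki67 or Top2a, 997 with HTODemux and 285 thinned (1378 to 1563), and 7414 in females became 36 and 2655 in such cells and thinned (7183 to 7385). For H2-Aa, 465 in males became 880 without the filter, 209 in cells without Mki67 or Top2a and 187 thinned (279 to 546), and 403 in females became 711 without the filter, 244 with HTODemux and 1224 thinned (225 to 474). For surface Ly6C, 5628 became 2100 by raw count, 1462 in cells without Mki67 or Top2a and 2433 thinned (5221 to 5703). For CD11b, 6768 became 1620 and 2903 in such cells and thinned (6471 to 6808). For CD115, 4301 became 56 in such cells, 1820 without markers of other types and 974 thinned (3644 to 4246). The age difference in the share of dividing cells in females was 4.72 points with HTODemux (p = 0.0556, exact permutation test) and 5.99 to 8.11 with each mouse left out, and 4.15 to 10.4 in males. Members flagged for a change of sign were Lyz2 with H2-Aa (−0.0132 in males without the filter, 0.29 in females thinned), Ifitm6 with H2-Aa in males (−0.0158 without Mki67 or Top2a), Plac8 with Ms4a3 in females (−0.00728 without Mki67 or Top2a, −0.0645 without markers of other types), Chil3 with Ly6C (0.76 by raw count, 0.37 without Mki67 or Top2a) and, with CD115 in cells without Mki67 or Top2a, Lyz2 (0.0127), Wfdc17 (0.0783) and Plac8 (0.0107). Not every change of sign was flagged. With each mouse left out, H2-Aa values in females ran from −0.04 to 0.06 for Cybb, −0.05 to 0.06 for Ifitm6 and −0.07 to 0.02 for Lyz2. Interactions ran from −0.006 to 0.29 for Cybb in males, and from −0.02 to 0.16 for Chil3 and −0.08 to 0.009 for Lyz2 in females. The age value of Ifitm6 in females also changed sign in cells without Mki67 or Top2a. Of the other member values under alternatives, 1124 were counted as unchanged, with no flagged change of sign, 17 moved, 14 gained and 35 lost a call.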
